A study of Homo sapiens with 12 samples.

Results

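HEIH and 8 other long noncoding RNAs (NEAT1, MALAT1, GAS5, SNHG1, SNHG5, SNHG12, ZFAS1 and DANCR) were followed by gene name in 12 poly(A) RNA-seq libraries, as 9 of the 36866 genes of the deposited table and of the 9169 that it lists as long noncoding. The libraries came from THP-1 and U-937, human acute myeloid leukemia cell lines of monocytic character that the labels give as having a complex karyotype, grown in 10% fetal bovine serum. Each line received honokiol, a biphenol of magnolia bark, or the DMSO vehicle at 0.1% for 24 h, which gave 4 groups of 3 libraries. The labels list honokiol doses of 20 and 35 µM without tying either to a line, so that dose and line cannot be told apart in any comparison between the lines. They do not say that the replicates were separate cultures, so the p-values measure the spread between these libraries, which may be technical. In such bulk RNA, fewer cells with a transcript and less transcript per cell cannot be told apart.

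HEIH was selected on the readout. It is 1 of the 13 genes past the threshold in U-937, so its U-937 values are given here as a description, with no test. The other 8 were picked as well measured long noncoding and small nucleolar RNA host transcripts. "Abundant" held for 6 of the 9 RNAs: GAS5, MALAT1, HEIH, SNHG5, ZFAS1 and SNHG1 lay above the median FPKM of the genes tested in all 4 groups. SNHG12, DANCR and NEAT1 lay below it in all 4 groups.

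Long noncoding RNAs act without being translated into a known protein, and these 9 fall into a few kinds. NEAT1 is the scaffold of paraspeckles, and MALAT1 is a neighbouring nuclear RNA of the speckles that hold splicing factors. The MALAT1 transcript and the long NEAT1 isoform end in a triple helix rather than a poly(A) tail, so that poly(A) selection recovers them incompletely. GAS5, SNHG1, SNHG5, SNHG12, ZFAS1 and DANCR carry small nucleolar RNAs (snoRNAs), the guides of ribosomal RNA modification, in their introns. The spliced host RNAs are short lived, and several, GAS5 and ZFAS1 among them, are known to begin with a 5′-terminal oligopyrimidine (TOP) tract that ties their translation and decay to growth signals. HEIH was first described in liver cancer, as an RNA that associates with EZH2, the methyltransferase of Polycomb repressive complex 2 (PRC2).

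HEIH (ENSG00000278970) lay at chr5:180826871-180831605 on the minus strand in the table, with 2 transcripts, and at chr5:180829954-180831605 in GENCODE 29 of GRCh38, as 1 exon of 1652 bases in the class TEC, which awaits experimental support. In the table its first 1280 bases overlap LINC00847 (ENSG00000245060), which runs on the opposite strand from chr5:180830326 to 180839742. The sources used here do not say whether strand entered the counting, so reads of HEIH and of LINC00847 cannot be told apart over that stretch. The window around the HEIH start is shown because HEIH is the RNA chosen on its response. It is RefSeq sequence of GRCh38.p14, minus strand, chr5:180831569-180831868, with 250 bases before the start in lower case and the first 50 transcribed bases in capitals.
HEIH: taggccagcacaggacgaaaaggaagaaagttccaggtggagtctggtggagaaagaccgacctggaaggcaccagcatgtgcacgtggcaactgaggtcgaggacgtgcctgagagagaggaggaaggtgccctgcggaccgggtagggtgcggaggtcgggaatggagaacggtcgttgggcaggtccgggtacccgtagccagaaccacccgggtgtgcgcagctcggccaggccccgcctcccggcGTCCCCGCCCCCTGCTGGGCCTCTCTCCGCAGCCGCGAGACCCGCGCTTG

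Among the RNAs with such a window (8 of 9), HEIH was the only one to hold an E-box, CACGTG, which is its own reverse complement and occurred in 7.26% of all 35116 windows of the same length. The antioxidant response element, searched as TGACNNNGC on both strands, occurred in 13.3% of windows and was found only at MALAT1. A TATATAA run on either strand occurred in 2.57% of windows and in those of SNHG5, SNHG12 and ZFAS1. These matches describe letters in a window and say nothing of a factor.

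The starts of the 6 snoRNA hosts are shown because they can be compared for a TOP-like beginning. Each run below gives 10 bases before and 20 bases after the RefSeq start in GRCh38.p14, with the unbroken run of C and T at the start in capitals.
GAS5: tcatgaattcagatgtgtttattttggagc
SNHG1: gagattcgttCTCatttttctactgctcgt
SNHG5: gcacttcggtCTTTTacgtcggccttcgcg
SNHG12: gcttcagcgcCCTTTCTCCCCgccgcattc
ZFAS1: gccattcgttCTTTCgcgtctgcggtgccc
DANCR: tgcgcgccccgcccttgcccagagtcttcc

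These windows lie at chr1:173869026-173869055 for GAS5, chr11:62855866-62855895 for SNHG1, chr6:85678714-85678743 for SNHG5 and chr1:28581854-28581883 for SNHG12, all on the minus strand. Those of ZFAS1 (chr20:49278632-49278661) and DANCR (chr4:52712384-52712413) lie on the plus strand. A start of C followed by at least 4 pyrimidines was found for SNHG5, SNHG12 and ZFAS1, and in 4.07% of all windows. The annotated start of GAS5 and that of DANCR had no pyrimidine in the first place, and the run of SNHG1 was 3 bases long. A RefSeq start can differ from the start used in these cells. The GAS5 window lies wholly outside the GAS5 span that was counted, which ends at chr1:173868882, so its bases may not be those of the RNA measured. That of ZFAS1 lies inside its counted span, which begins at chr20:49278178.

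The table places NEAT1 at chr11:65422774-65445540 and MALAT1 at chr11:65497688-65506469, both on the plus strand. GAS5 spans chr1:173858559-173868882 and SNHG12 chr1:28578538-28581878, both on the minus strand. SNHG1 spans chr11:62851984-62855953 and SNHG5 chr6:85650491-85678754 on the minus strand, and ZFAS1 spans chr20:49278178-49295738 and DANCR chr4:52712325-52723623 on the plus strand. On the same strand, GENCODE 29 annotates 7 snoRNAs within SNHG1, 5 within SNHG12, 3 within ZFAS1 1 each within SNHG5 and DANCR, and 0 as separate genes within GAS5. GAS5 overlaps ZBTB37 by 801 bases and GAS5-AS1 by 1469 bases on the opposite strand, and ZFAS1 overlaps ZNFX1 by 249 bases on the opposite strand. DANCR shares 11230 bases with LINC01618 on its own strand. The counts of these 3 hosts are therefore uncertain to the extent that overlapping reads were split.

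The library totals ran from 57406966 to 75065752 estimated counts, in which 1 fragment is mostly worth 4 counts. Within a group, the correlation between libraries was 0.974 to 0.987 on the log2 scale. DMSO replicate 1 stood apart in both lines. Mitochondrial genes took 13.73% of counts in THP-1 DMSO replicate 1 and 12.61% in U-937 DMSO replicate 1, against 5.605 to 7.549% in the other 10 libraries. Myeloid markers were present in both lines, with SPI1 at 53.26 to 141.66 FPKM, although MPO was at 0.17 FPKM or less in U-937. Of the 8 listed markers of other cells in the table, CD3D and CD3E reached at most 0.23 FPKM and PECAM1, which monocytic cells also express, was at 12.83 to 50.7 FPKM. The summed level of the 20 listed RNAs without a poly(A) tail ranged from 48.5 to 794 FPKM between libraries and overlapped between treatments in both lines. The part of these differences in the results below was not tested, except where a value without DMSO replicate 1 is given.

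**Figure D1:**
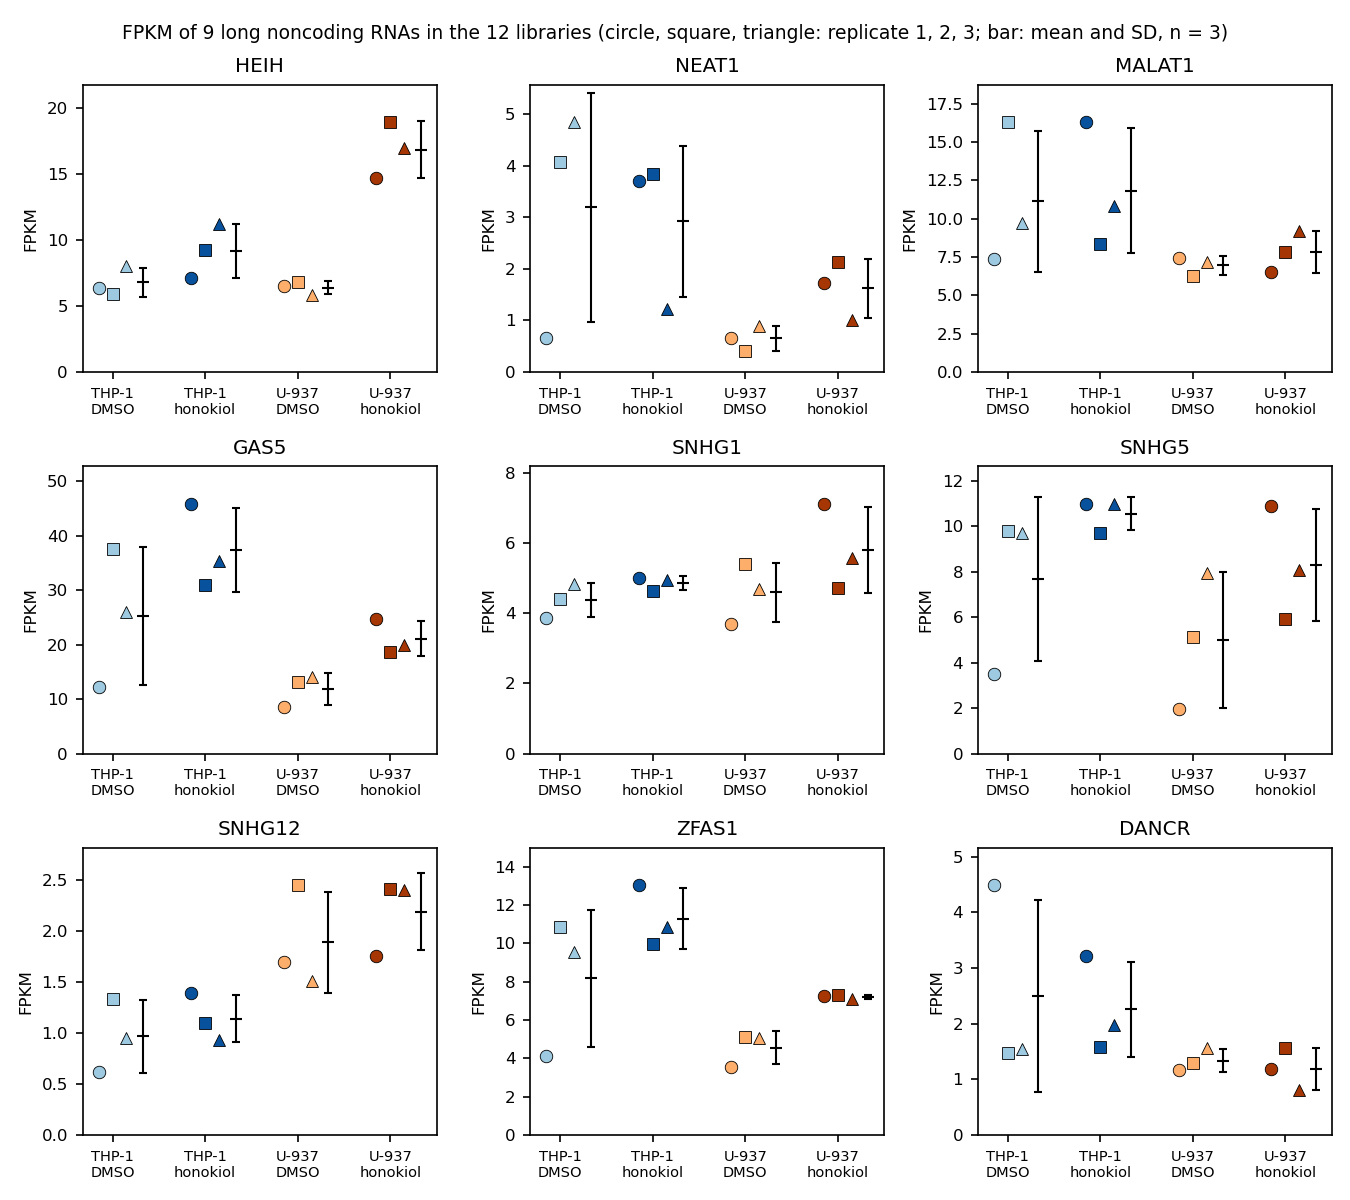
FPKM of each of the 9 RNAs (vertical axis, from 0, scaled per panel) in the 4 groups, with 1 symbol a library and the mean with SD (n = 3) at the right of each group. HEIH stood at 14.66 to 18.93 in U-937 honokiol and at no more than 11.21 in any other library, while the circle of THP-1 DMSO replicate 1 lay low for GAS5, SNHG5, ZFAS1 and NEAT1 and high for DANCR.

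Levels are given as FPKM, which divides by transcript length and library size, so that genes can be compared. In the DMSO groups GAS5 had the highest mean of the 9 RNAs, at 25.2 ± 12.7 FPKM (SD, n = 3) in THP-1 and 11.9 ± 2.99 (SD, n = 3) in U-937. MALAT1 came next in both lines. It measured 11.1 ± 4.62 FPKM (SD, n = 3) in THP-1 and 6.97 ± 0.633 (SD, n = 3) in U-937. ZFAS1, SNHG5 and HEIH followed in THP-1, and each overlapped its neighbour in that order. In U-937 DMSO the run from MALAT1 through HEIH, SNHG5, SNHG1 and ZFAS1 overlapped step by step, while GAS5 lay above MALAT1 and SNHG12 below ZFAS1 without overlap. SNHG12 still overlapped SNHG5, which had 1 low library. With honokiol, HEIH was the fifth in THP-1, where it overlapped SNHG5, and came directly after GAS5 in U-937, overlapping it and clear of the SNHG5 libraries below. SNHG12 was lowest in THP-1 DMSO at 0.967 ± 0.355 FPKM (SD, n = 3), and NEAT1 was lowest in U-937 DMSO at 0.653 ± 0.240 (SD, n = 3).

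HEIH had 6.38, 5.93 and 8.04 FPKM in THP-1 DMSO replicates 1 to 3. After honokiol the same line had 7.13, 9.22 and 11.21 FPKM. The 2 groups overlapped, since the lowest honokiol library lay below the highest DMSO library. The log2 fold change in THP-1, the comparison that did not choose HEIH, was 0.38 (SE 0.21) and did not pass the quasi-likelihood test of edgeR, with p-values adjusted by Benjamini-Hochberg over every gene tested (adjusted p = 0.458). Of the 14600 genes tested in THP-1, 6 passed an adjusted p of 0.05, which is 0.0411%.

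In U-937 DMSO the HEIH libraries stood at 6.51, 6.79 and 5.86 FPKM, close to those of THP-1 DMSO. With honokiol they stood at 14.66, 18.93 and 16.95 FPKM, and all of these were above every DMSO library of either line. The means were 6.39 ± 0.477 and 16.9 ± 2.14 FPKM (SD, n = 3 each). The log2 fold change was 1.3 (SE 0.16), or 2.47-fold. In U-937 13 of 13726 genes tested passed the threshold (0.0947%). HEIH was the last of them, and the values that chose it, given once and as no evidence, were an adjusted p in edgeR of 0.0475 beside 0.0417 for KCNE1 just inside and 0.0502 for CTDSPL and UVSSA just outside. The log2 fold change was 1.21 to 1.39 when each library was left out in turn. HEIH was past the threshold in none of those 6 fits, which reuse the values that chose it and are no test of it.

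LINC00847, the antisense neighbour, moved alongside. In THP-1 it stood at 0.85, 0.79 and 1.52 FPKM with DMSO and 1.43, 1.96 and 2.14 with honokiol. Its U-937 levels were 1.12, 1.11 and 1.76 FPKM with DMSO and 3.97, 3.03 and 4.01 with honokiol, so that the U-937 groups did not overlap. The log2 fold change of LINC00847 was 1.38 (SE 0.23) in U-937 and 0.75 (SE 0.29) in THP-1, and neither passed the edgeR test (adjusted p = 0.0687 and 0.339). The summed counts of HEIH and LINC00847 were 24.94 to 28.13 CPM (counts scaled to the library total) in U-937 DMSO and 66.87 to 73.2 with honokiol. In THP-1 the same sum was 21.23 to 31.93 CPM with DMSO and 28.99 to 44.57 with honokiol.

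**Figure D2:**
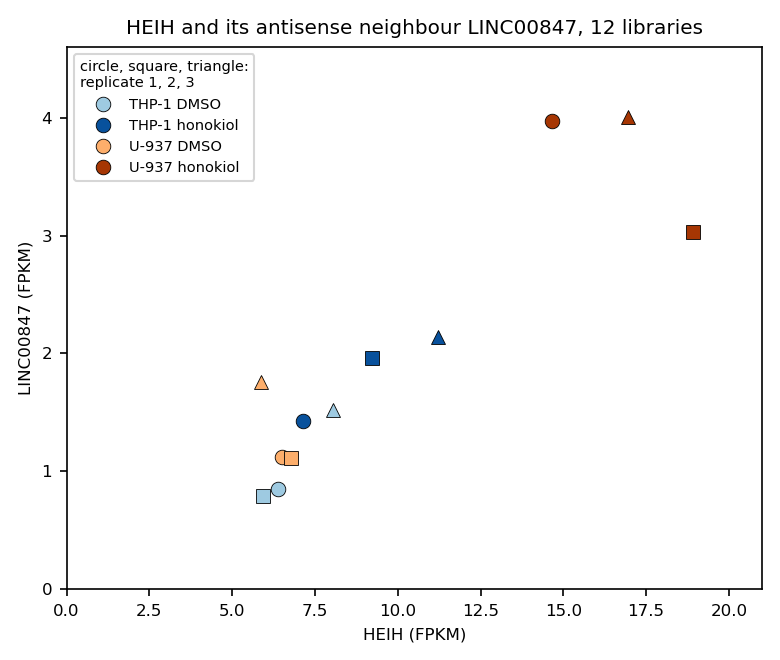
FPKM of HEIH (horizontal axis) against FPKM of LINC00847 (vertical axis) in the 12 libraries, coloured by group. The 3 U-937 honokiol libraries lie apart, above 14 FPKM of HEIH and at or above 3.03 of LINC00847. Of the THP-1 honokiol libraries, replicates 2 and 3 lie between them and the DMSO libraries, and replicate 1 lies among the DMSO libraries.

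The difference of the HEIH response between the lines was 0.91 on the log2 scale (SE 0.27), higher in U-937. It is given without a test because it contains the U-937 contrast that chose HEIH. The PRC2 genes, the complex HEIH is known for, were measured in full: 10 of 10 listed subunits were tested, and 0 passed in either line at an adjusted p of 0.05. At an unadjusted p under 0.05 there were 0 of the 10 subunits in THP-1 and 1, JARID2, in U-937, beside 13.1% and 16.7% of all genes tested. Their median log2 fold change in THP-1 was -0.15, and in U-937 it was -0.10, beside -0.001 and 0.016 over all genes tested. The 3 with the smallest p in U-937 were JARID2 (log2 fold change -0.53), MTF2 (-0.35) and EZH1 (0.22), and in THP-1 EZH2 (-0.37), JARID2 (0.26) and AEBP2 (-0.22). JARID2, which helps to bring the complex to chromatin, had opposite signs in the 2 lines, and its adjusted p in edgeR was 0.149 in U-937 and 0.438 in THP-1.

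The genes whose levels followed HEIH most closely over the 12 libraries, after each line's mean was subtracted on the log2(FPKM + 0.5) scale, were PLTP, NEK1, RCN1, CEACAM21 and GMIP, with Pearson's r of 0.968 to 0.954 among 12342 genes. NEK1 is a kinase, RCN1 a calcium-binding protein of the endoplasmic reticulum, CEACAM21 a surface protein of the CEA family and GMIP a GTPase-activating protein of RhoA. PLTP, the phospholipid transfer protein, had means of 11.3 FPKM with DMSO and 30.9 with honokiol in U-937, and of 63.5 and 96.8 FPKM in THP-1. Its U-937 levels are given without a test, because PLTP was picked by its likeness to HEIH, which was chosen on that contrast. The 12 points share libraries and treatments, and the r values are a description only.

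NEAT1 varied widely within the THP-1 groups. THP-1 DMSO had 0.66, 4.07 and 4.85 FPKM, and THP-1 honokiol had 3.70, 3.84 and 1.22. Each THP-1 group held 1 low library, and the groups overlapped (log2 fold change -0.14, SE 0.66, adjusted p = 0.938 in edgeR). The NEAT1 libraries of U-937 DMSO stood at 0.66, 0.41 and 0.89 FPKM, and those with honokiol at 1.73, 2.13 and 1.01. In U-937 every honokiol library was above every DMSO library. The log2 fold change was 1.22 (SE 0.33), with an unadjusted p of 0.00656 and an adjusted p of 0.156 in edgeR, so that it did not pass. DESeq2 gave an adjusted p of 0.0107 for the same change. The difference between the lines was 1.35 (SE 0.84, adjusted p = 0.658 in edgeR).

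MALAT1 measured 7.37, 16.29 and 9.75 FPKM in THP-1 DMSO and 16.31, 8.36 and 10.84 in THP-1 honokiol. It measured 7.45, 6.25 and 7.20 FPKM in U-937 DMSO and 6.50, 7.81 and 9.21 in U-937 honokiol. The treatments overlapped in both lines. On the log2 scale the fold changes were 0.05 (SE 0.32) and 0.08 (SE 0.17), with adjusted p of 0.957 and 0.851 in edgeR. In neither line was there a difference beyond the spread between libraries.

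Proteins of the bodies that NEAT1 and MALAT1 occupy were looked at as a list of 13 genes, all tested. At an adjusted p of 0.05, 0 of 13 passed in either line by edgeR. At an unadjusted p under 0.05, 5 had lower values in THP-1 and 4 in U-937, with none higher, beside 13.1% and 16.7% of all genes in either direction. The median log2 fold change was -0.34 in THP-1, where 0 of 13 lay above zero, and -0.31 in U-937, where 1 did. Among those in THP-1 were SFPQ (-1.02) and NONO (-0.56), RNA-binding proteins of the paraspeckle, with adjusted p of 0.25 and 0.311 in edgeR. Among those in U-937 were SON (-0.49), a protein of the nuclear speckle, and HNRNPK (-0.35).

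GAS5, which hosts box C/D snoRNAs and accumulates when growth stops, had 12.13, 37.45 and 26.01 FPKM in THP-1 DMSO. With honokiol THP-1 had 45.89, 30.91 and 35.33 FPKM. DMSO replicate 1 was the lowest and the groups overlapped (log2 fold change 0.54, SE 0.34, adjusted p = 0.518 in edgeR). U-937 had 8.47, 13.12 and 14.05 FPKM of GAS5 with DMSO and 24.68, 18.67 and 19.95 with honokiol, and these groups did not overlap. The U-937 log2 fold change of GAS5 was 0.75 (SE 0.19), or 1.68-fold, with an unadjusted p of 0.00474 and an adjusted p of 0.147 in edgeR.

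ZFAS1, the host of the SNORD12 family, gave a like picture. Its THP-1 libraries stood at 4.13, 10.87 and 9.53 FPKM with DMSO and at 13.04, 9.96 and 10.87 with honokiol, and overlapped. Its U-937 libraries stood at 3.55, 5.10 and 5.04 FPKM with DMSO and at 7.25, 7.31 and 7.10 with honokiol, and did not overlap. For ZFAS1 the log2 fold change was 0.43 (SE 0.30) in THP-1 and 0.58 (SE 0.15) in U-937, with adjusted p of 0.55 and 0.147 in edgeR. DESeq2 gave adjusted p of 0.0263 for GAS5 and 0.0357 for ZFAS1 in U-937.

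SNHG5 had 3.50, 9.78 and 9.72 FPKM in THP-1 DMSO and 11, 9.71 and 10.96 in THP-1 honokiol. In U-937 it had 1.95, 5.14 and 7.94 FPKM with DMSO and 10.88, 5.93 and 8.08 with honokiol. The groups overlapped in both lines, and in both the DMSO replicate 1 library was the lowest of 6. The log2 fold change was 0.43 (SE 0.32) in THP-1 and 0.66 (SE 0.43) in U-937, with adjusted p of 0.577 and 0.474 in edgeR.

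SNHG1, host of the SNORD25 to SNORD31 cluster, varied little within THP-1. Its levels there were 3.86, 4.41 and 4.83 FPKM with DMSO and 5.01, 4.64 and 4.95 with honokiol. Those in U-937 were 3.70, 5.39 and 4.68 FPKM with DMSO and 7.12, 4.71 and 5.58 with honokiol. Both lines overlapped between treatments, at log2 fold changes of 0.10 (SE 0.14) and 0.25 (SE 0.21) and adjusted p of 0.781 and 0.585 in edgeR.

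SNHG12 and DANCR had the lowest levels among the hosts. SNHG12 measured 0.62, 1.33 and 0.95 FPKM in THP-1 DMSO, 1.39, 1.10 and 0.93 in THP-1 honokiol, 1.70, 2.45 and 1.51 in U-937 DMSO and 1.75, 2.41 and 2.40 in U-937 honokiol. Treatments overlapped for SNHG12 in both lines (log2 fold change 0.19, SE 0.30, and 0.12, SE 0.25). DANCR measured 4.49, 1.47 and 1.54 FPKM in THP-1 DMSO, 3.22, 1.58 and 1.98 in THP-1 honokiol, 1.16, 1.29 and 1.56 in U-937 DMSO and 1.19, 1.57 and 0.81 in U-937 honokiol. DANCR was the only one of the 9 RNAs with a log2 fold change below 0 in both lines, at -0.24 (SE 0.49) and -0.26 (SE 0.25), and neither passed (adjusted p = 0.855 and 0.633 in edgeR). In THP-1 its sign turned to 0.58 without DMSO replicate 1.

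**Figure D3:**
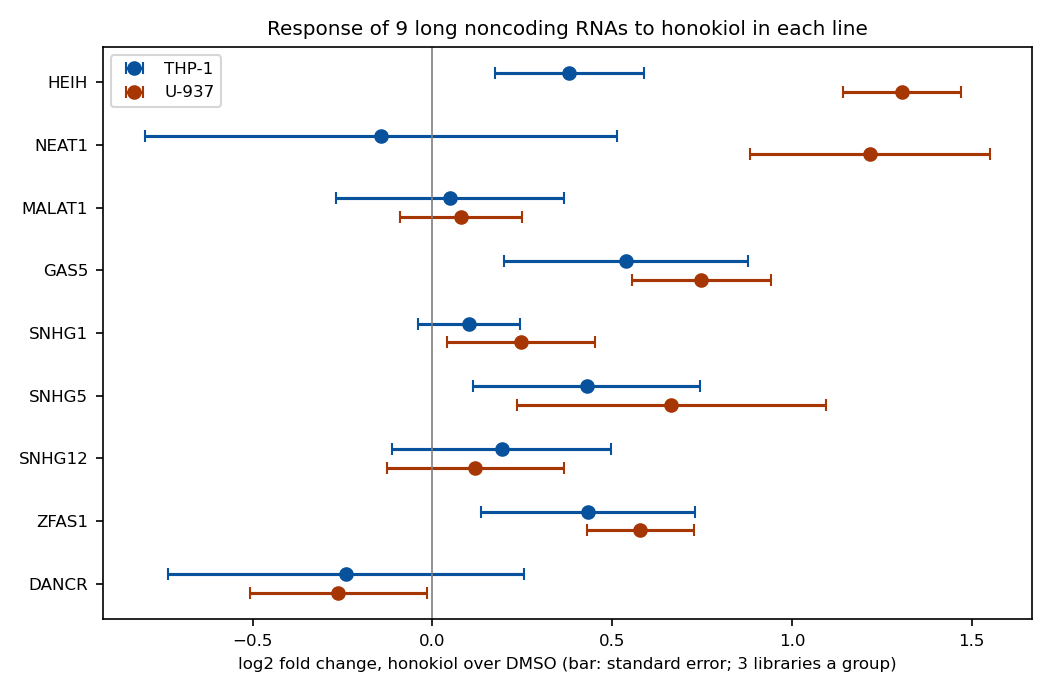
Log2 fold change of honokiol over DMSO (horizontal axis) for the 9 RNAs in THP-1 and U-937, with standard errors from the edgeR fit of 3 libraries a group. HEIH at 1.3 and NEAT1 at 1.22 in U-937 lie farthest to the right, and the THP-1 and U-937 values of GAS5, SNHG5 and ZFAS1 lie on the same side of 0.

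Counted together, 0 of the 9 RNAs passed the adjusted p in THP-1 and 0 of the 8 not chosen on the comparison passed it in U-937. At an unadjusted p under 0.05 there were 0 of 9 in THP-1, beside 13.1% of genes tested, and in U-937 NEAT1, GAS5 and ZFAS1, 3 of those 8, beside 16.7%. The same 3 were those whose U-937 honokiol libraries all lay above the DMSO libraries, which held in this direction for 16.7% of genes tested and in the other for 7.50%. None of the 9 was free of overlap in THP-1, where 13.0% of genes were higher and 7.62% lower without overlap. The median log2 fold change of the 8 RNAs other than HEIH was 0.15 (THP-1) and 0.41 (U-937), and that of all genes listed as long noncoding and tested was 0.08 (1364 genes) and 0.18 (1295 genes). For the difference between the lines, 0 of the 8 RNAs other than HEIH passed an adjusted p of 0.05, beside 0.111% of genes, and 0 passed an unadjusted p of 0.05, beside 9.37%.

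DMSO replicate 1 moved with the responses of the hosts. In THP-1 its log2 difference from the mean of the other 2 DMSO libraries was -1.32 for SNHG5, -1.21 for GAS5, -1.15 for ZFAS1 and -2.60 for NEAT1, all lower, and 1.72 for DANCR, which was higher. HEIH differed by 0.03 and SNHG1 by -0.11. U-937 DMSO replicate 1 lay lower for SNHG5 (-1.61), GAS5 (-0.59) and ZFAS1 (-0.43). The 20 other snoRNA host RNAs had a median of -0.61 in THP-1 DMSO replicate 1 and -0.52 in U-937 DMSO replicate 1, and the 15 protein-coding snoRNA hosts, which include NCL and EEF2, had medians of 0.10 and -0.21.

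**Figure D4:**
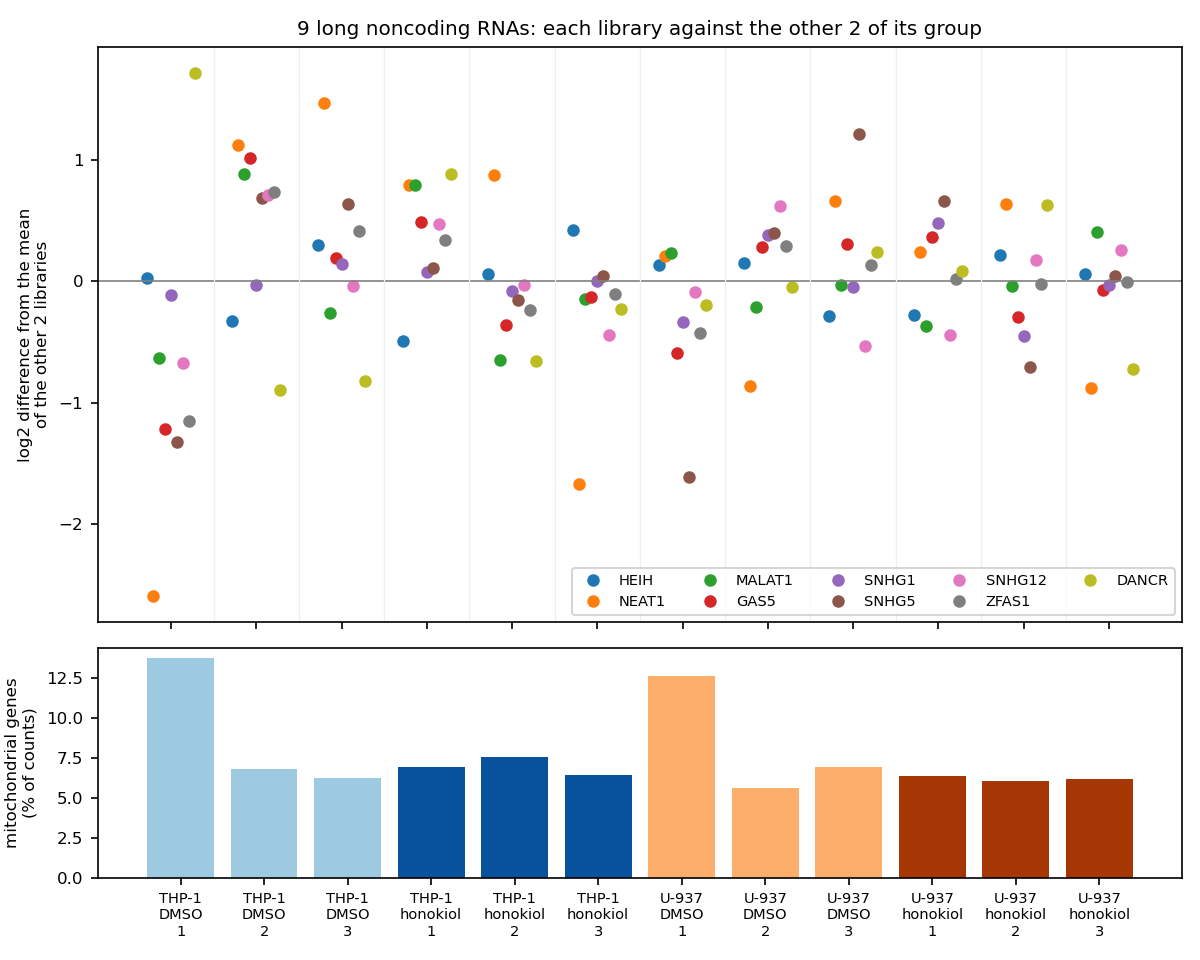
Upper panel: log2 difference of each of the 9 RNAs from the mean of the other 2 libraries of its group (vertical axis) in the 12 libraries. Lower panel: share of counts in mitochondrial genes. THP-1 DMSO replicate 1, at 13.73% mitochondrial counts, has NEAT1 at -2.60 and DANCR at 1.72, and U-937 DMSO replicate 1, at 12.61%, has SNHG5 at -1.61.

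Without DMSO replicate 1, the THP-1 log2 fold changes became 0.23 for GAS5, 0.11 for SNHG5 and 0.14 for ZFAS1. In U-937 they became 0.57 for GAS5, 0.29 for SNHG5 and 0.44 for ZFAS1. The HEIH values without that library were 0.39 (THP-1) and 1.34 (U-937), and the NEAT1 values -0.61 and 1.25. With that library the THP-1 values of the same 3 hosts were 0.54, 0.43 and 0.43, and that of SNHG5 in U-937 was 0.66. When THP-1 DMSO replicate 2 was left out instead, the THP-1 values were 0.917 for GAS5, 0.627 for SNHG5 and 0.675 for ZFAS1. These values therefore depended on single DMSO libraries, in both directions. Leaving out DMSO replicate 1 moved the HEIH value of THP-1 by less than 0.05. The U-937 value of HEIH belongs to the comparison that chose it and is a description only.

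Several hosts had like profiles over the libraries. After each line's mean was subtracted, the r over the 12 libraries was 0.976 between GAS5 and ZFAS1, 0.895 between GAS5 and SNHG5, 0.861 between SNHG5 and ZFAS1 and 0.839 between SNHG1 and SNHG5. GAS5 and ZFAS1 correlated at 0.985 within THP-1 and 0.966 within U-937. The 10 pairs among the 5 hosts other than DANCR ran from 0.296, between SNHG1 and SNHG12, to 0.976. Within THP-1, which holds the DMSO library farthest from its group, they ran from 0.619 to 0.985, and within U-937 from 0.054 to 0.966. DANCR had an r of -0.226 to -0.483 with the other 8 RNAs, of -0.211 to -0.708 within THP-1 and of -0.501 to 0.205 within U-937. HEIH had 0.566 with ZFAS1 (0.324 within THP-1 and 0.876 within U-937) and 0.533 with GAS5 (0.255 and 0.792). These r values describe libraries that share treatment and depth. The genes most like NEAT1 by the same measure were AC147067, LGALS2 and HYI, at r of 0.911 to 0.896.

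Among the other snoRNA host RNAs, 18 of 21 in the table were tested in each line and 0 passed the adjusted p in edgeR. In THP-1 0 had an unadjusted p under 0.05, and the median log2 fold change was 0.09. In U-937 SNHG32 (27 to 70.9 FPKM, log2 fold change 1.32, adjusted p = 0.076 in edgeR), SNHG29 (0.54) and SNHG6 (0.55) were higher and SNHG4 (-0.57) lower at an unadjusted p under 0.05, which is 22.2% of the 18 beside 16.7% of all genes tested, and the median was 0.04. The hosts with the smallest p in THP-1 were EPB41L4A-AS1 (-0.49), SNHG32 (0.66) and SNHG15 (-0.39). The 15 protein-coding snoRNA hosts had medians of 0.12 and -0.18. None of them passed the adjusted p, and at an unadjusted p under 0.05 NOP56 was lower in THP-1 (-0.40) and NCL (-0.49), DKC1 (-0.33) and WDR43 (-0.49) were lower in U-937. That is 6.67% of the 15 beside 13.1% of all genes tested in THP-1, and 20% beside 16.7% in U-937.

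Of the snoRNAs of these introns, 19 were in the table, but only 3 passed the level filter in THP-1 and 6 in U-937. None passed the test, and the standard error on the log2 scale reached 1.07 for SNORD26 in THP-1 and 1.31 for SNORD22 in U-937. The nonsense-mediated decay factors, whose pathway is known to degrade GAS5 and other spliced hosts, were all tested (10 of 10) and 0 passed the adjusted p in edgeR. At an unadjusted p under 0.05, 4 of 10 had lower values in THP-1 (UPF2 -0.66, UPF3B -0.61, SMG6 -0.48 and UPF1 -0.34) and 1 of 10 in U-937 (UPF1, -0.41), beside 13.1% and 16.7% of all genes tested in either direction. In THP-1 their median log2 fold change was -0.34, and in U-937 -0.11.

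Of 27 other well-known long noncoding RNAs in the table, THP-1 had 12 and U-937 had 16 that were tested, and 0 passed the adjusted p in edgeR. CYTOR (0.58) and EBLN3P (0.47) were higher in THP-1 and MIR4435-2HG (0.37) higher in U-937 at an unadjusted p under 0.05. That is 16.7% of the 12 beside 13.1% of all genes tested in THP-1, and 6.25% of the 16 beside 16.7% in U-937. The RNAs without a poly(A) tail had a median log2 fold change of -0.53 over 7 genes in THP-1 and 0.94 over 8 genes in U-937, where RMRP stood at 5.36 (SE 1.79) and RN7SK at 2.09 (SE 0.94). None of them passed. Their U-937 median lay on the same side as NEAT1, but the U-937 honokiol libraries differed widely. Over 9 genes, their median log2 difference from the other libraries of that group was 3.047 in replicate 1, -1.355 in replicate 2 and -1.902 in replicate 3. For NEAT1 the same difference was 0.245, 0.637 and -0.882. The part of these RNAs in the NEAT1 value was not tested.

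The lines without honokiol were compared in the DMSO groups, in 1 edgeR fit of the 12 libraries. Of the 8 RNAs other than HEIH, NEAT1, GAS5 and ZFAS1 were lower in U-937 than in THP-1 and SNHG12 was higher, each at an adjusted p under 0.05, beside 52.9% of all genes, with 28.5% lower and 24.4% higher. The log2 difference of NEAT1 was -2.30 (SE 0.62, adjusted p = 0.00805 in edgeR), which is 0.203-fold of the THP-1 level. That of GAS5 was -1.11 (SE 0.31, adjusted p = 0.00952 in edgeR), and that of ZFAS1 was -0.87 (SE 0.26, adjusted p = 0.0133 in edgeR). SNHG12 was 1.89-fold higher in U-937 (log2 0.92, SE 0.29, adjusted p = 0.0198 in edgeR).

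SNHG12 was the only one of these whose 3 U-937 DMSO libraries (1.51 to 2.45 FPKM) all lay above the THP-1 DMSO libraries (0.62 to 1.33), as for 27.7% of genes, while 29.0% lay below without overlap. For NEAT1, GAS5 and ZFAS1 the overlap came from THP-1 DMSO replicate 1, which lay among the U-937 values. Without that library the log2 differences were -2.77 for NEAT1, -1.42 for GAS5 and -1.17 for ZFAS1, all past the threshold. Without THP-1 DMSO replicate 2, GAS5 was at -0.73 (adjusted p = 0.0525 in edgeR) and ZFAS1 at -0.63 (0.0674), and neither passed. ZFAS1 also missed it without U-937 DMSO replicate 1 (adjusted p = 0.052 in edgeR). NEAT1 passed with each library left out in turn. Without THP-1 DMSO replicate 1, SNHG12 was at 0.72 with an adjusted p of 0.0675 in edgeR, and MALAT1 at -0.90 with an adjusted p of 0.0223. SNHG12 also missed the threshold without THP-1 DMSO replicate 3 (0.0577) and without U-937 DMSO replicate 2 (0.0869). MALAT1 (-0.71, SE 0.28, adjusted p = 0.0518 in edgeR), DANCR (-0.99, SE 0.44, 0.079) and SNHG5 (-0.66, SE 0.43, 0.217) did not pass in the fit of all libraries. SNHG1 differed by 0.03 (SE 0.17), the smallest of the 9, and HEIH by -0.13 (SE 0.19), given without a test.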

How the data were processed

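Poly(A) RNA of THP-1 and U-937 cells was sequenced in 12 libraries, grouped by line and treatment from the labels. The deposited table gives FPKM, which the authors divided by transcript length and library depth, and an estimated count, a whole number that the authors did not normalize. The submitters' processing notes name HISAT2 2.0, StringTie 1.3.0, Bowtie 0.12.2 and the mouse build mm8 without roles, and the series text describes a microarray. The coordinates are human: 35762 of 36866 gene IDs were found in GENCODE 29 (GRCh38), and 35750 of these at an overlapping position. The counting tool, its strand setting and the annotation are not given in the sources used here. Since 4 is the most frequent low count, the counts are taken as coverage-based estimates that overstate fragments about 4-fold, and the precision is limited accordingly.

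A gene was tested if 3 or more of a line's 6 libraries reached an FPKM of 0.5 (3 or more of 12 for comparisons between lines). The tests were run on the deposited counts with edgeR 4.0.16 (quasi-likelihood, TMM) in R 4.3.3, with Benjamini-Hochberg adjustment over all genes tested. All 9 RNAs passed the filter in each fit. In U-937 NEAT1 passed in all 3 honokiol libraries and missed the limit in 1 DMSO library. "Passed" means an adjusted p under 0.05. Limma 3.58.1 on log2(FPKM + 0.5), DESeq2 1.42.0, other filters and scalings, and leaving out each library were alternatives. The fits were tested on counts simulated from these data, with changes set in 200 genes drawn from the better counted ones. Between the DMSO groups 52.9% of genes passed in the data, far more than were changed here, so that recovery describes the simulation only. Of 100 changed 2-fold, edgeR recovered 46 in THP-1, 45 in U-937, 5 for the difference between the lines and 30 between the DMSO groups. Of 100 changed 4-fold, it recovered 84, 91, 57 and 80. False calls numbered 13, 17, 6 and 13. An RNA that did not pass may therefore still have changed, above all in the difference between the lines. The 9 RNAs, lists and motifs were chosen with earlier results of these data known. Named beside the 9 RNAs are genes of a fixed list with an adjusted p under 0.05, otherwise the 3 with the smallest p, the 5 genes most like HEIH and 3 most like NEAT1, and genes overlapping these loci. Further list genes at an unadjusted p under 0.05, SPI1, MPO, CD3D, CD3E, PECAM1 and the genes next to the U-937 threshold were named after their values were seen. 1 gene that meets these criteria is not reported here. Promoter sequences are from RefSeq, with 8 of the 9 RNAs matched by symbol.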

Additional observations from a re-analysis of the deposited data

How the results depend on the processing

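In U-937 the count of RNAs past the threshold was 1, which is HEIH and was fixed by its choice. That count was 0 with no filter on low genes, 0 with counts divided by 4 and 0 to 0 when each library was left out in turn. It was 4 with DESeq2 (HEIH, NEAT1, GAS5 and ZFAS1), which called 772 genes in that line where edgeR called 13. The part of HEIH in every U-937 count of this section reuses the values that chose it and is no test of it. In THP-1 and for the difference between the lines, 0 passed under each alternative. Between the DMSO groups 4 passed, 2 (NEAT1 and GAS5) with an added limit of 1 on the absolute log2 fold change, and 3 to 4 when each library was left out. The replicate numbers showed no clear pairing within a line. Same-numbered libraries of a line correlated at -0.222 to 0.135 in their deviations from the group means, and 2 of 12 correlated best with their own number. Between the lines, the DMSO libraries numbered 1 correlated at 0.155, those numbered 2 at 0.055 and those numbered 3 at 0.154. Whether a batch goes with the numbers was not tested. With the replicate block the U-937 count was 0, of 0 genes called in all. The cause of these changes was not tested.

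Of 594 alternative values for single RNAs, 39 had the opposite sign, and 0 of those had an adjusted p under 0.05. The THP-1 log2 fold change of NEAT1 turned to 0.048, 0.111 and 0.012 in limma with a pseudocount of 0.5, 0.1 and 1, and to 0.045 with the replicate block. The difference between the lines for SNHG12 was 0 and 0.017 in limma with a pseudocount of 0.5 and 1, and 0.073 without DMSO replicate 1 of both lines, an alternative chosen after seeing the data. When each library was left out in turn, the THP-1 value ranged from -0.612 to 0.277 for NEAT1, from -0.26 to 0.399 for MALAT1, from -0.004 to 0.461 for SNHG12 and from -0.587 to 0.581 for DANCR. The U-937 value ranged from -0.067 to 0.196 for MALAT1 and from -0.046 to 0.333 for SNHG12. The difference between the lines ranged from -0.331 to 0.331 for MALAT1, -0.183 to 0.505 for GAS5, -0.039 to 0.266 for SNHG1, -0.143 to 0.681 for SNHG5, -0.355 to 0.136 for SNHG12, -0.11 to 0.425 for ZFAS1 and -0.854 to 0.323 for DANCR. The DMSO comparison ranged from -0.094 to 0.128 for SNHG1. For HEIH, no left-out library turned the sign in THP-1 (0.221 to 0.534) or between the DMSO groups (-0.233 to -0.03). Its sign in U-937 and in the difference between the lines follows from its choice and is no evidence.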
